A study of Homo sapiens with 9 samples.

Results

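RPL3, RPL12, RPL10A, RPS9, RPLP0 and RPS15A are 6 genes of the cytosolic ribosome, taken by their symbols in the authors' table that pairs assembled isoforms with reference names. They are 6 of 49623 symbols in that table. The group was put together as ribosomal protein genes with isoforms subject to nonsense-mediated decay (NMD). Its members were chosen by the isoform signal and the authors' NMD marks in these same libraries, so their levels below are a description and carry no test. For RPS15A the data go against that description, because none of its 11 isoforms in the isoform table was marked by the authors as an NMD isoform. The other 5 genes had between 3 and 8 marked isoforms each.

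The measurements are RNA sequencing of cytoplasmic poly(A)+ RNA of the b-39 subline of HEK293 Flp-In T-Rex, a line derived from human embryonic kidney. All 4 groups carried a beta-globin reporter with a premature stop codon, PTC39, at the Flp-In site of the line. The control had received siRNA against EGFP. The other groups were depleted of XRN1 alone, of SMG6 together with XRN1, or of UPF1 together with XRN1. There was 1 library per group, so no difference has a replicate check, no p-value is given, and intervals cover counting error only. The design compares the depletions with the control and the co-depletions with the XRN1 depletion, to see which isoforms gather when NMD is impaired.

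NMD is a surveillance pathway that removes mRNAs on which the ribosome stops too early. UPF1 is its central RNA helicase, SMG6 is an endonuclease that cuts the mRNA near the stop, and XRN1 is the enzyme of the cytoplasm that chews RNA in the 5′ to 3′ direction, including the piece that such a cut leaves behind. An exon junction that lies well downstream of a stop codon is the best known mark of a target, and several ribosomal protein genes are known to make spliced forms with such stops as a way of limiting their own output.

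The siRNA targets were read first as a check of the labels. XRN1 mRNA was 7.80 FPKM (fragments per kilobase of transcript, scaled to library size) in the control and 7.31, 10.1 and 6.50 FPKM in the libraries labelled XRN1, SMG6/XRN1 and UPF1/XRN1. SMG6 mRNA was 4.77 FPKM in the control and 7.66 FPKM in the library labelled SMG6/XRN1, and UPF1 mRNA was 6.71 FPKM in the control, 8.59 FPKM in the library labelled UPF1/XRN1 and 11.6 FPKM in the one labelled XRN1. By FPKM, lower target mRNA than in the control was thus seen only for XRN1 in 2 of its 3 libraries. Every library below is named by its label. SMG6 had 571 estimated reads in the control, 718 (5.55 FPKM) in the library labelled XRN1 and 672 in the one labelled SMG6/XRN1. XRN1 had 1781 estimated reads in the control and 1515, 1817 and 1854 in the libraries labelled XRN1, SMG6/XRN1 and UPF1/XRN1. HBB, the gene of the inserted reporter, was 139, 257, 355 and 747 FPKM in the same order. Depth was 31476526 to 35983475 estimated reads per library. Of 7 markers of HEK293 cells, 4 (NEFL, VIM, KRT8 and KRT18) had over 100 reads in every library and NEFM, PAX2 and LHX1 did not, while 0 of 11 markers of blood, liver, fibroblasts, endothelium and muscle reached 100 reads, 5 of them had at most 3 reads in every library, and their summed reads were 103, 96, 89 and 127.

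The sequences that separate marked isoforms of RPL3, RPL12 and RPS9 from the normal mRNA are short and each carries a stop codon. An RPS15A isoform that was not marked is shown beside them, since its sequence also brings in a stop. Of the 78 isoforms of the 6 genes in the isoform table, 59 matched a reference transcript, and all 59 were found by Ensembl identifier in GENCODE 29, 14 of them with the same version number. Each line below starts with the last bases shared with the reference mRNA and runs 5′ to 3′ on the mRNA strand to the first in-frame stop, which is in capitals. Shared bases number 15 in each, and the lines named reference give the normal continuation at the same place.
RPL3 ENST00000465618.5: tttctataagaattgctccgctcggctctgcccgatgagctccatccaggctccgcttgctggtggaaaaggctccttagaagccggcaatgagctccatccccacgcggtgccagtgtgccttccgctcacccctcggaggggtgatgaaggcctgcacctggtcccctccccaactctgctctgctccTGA
RPL12 ENST00000497825.5: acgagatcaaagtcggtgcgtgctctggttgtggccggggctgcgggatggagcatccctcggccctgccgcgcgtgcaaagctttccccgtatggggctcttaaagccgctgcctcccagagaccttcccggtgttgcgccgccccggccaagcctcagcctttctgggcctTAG
RPS9 ENST00000436445.5 and ENST00000445961.5: ccagcgccatatcagccctcggaggTGA
RPS9 reference ENST00000302907.8: ccagcgccatatcagggtccgcaagcag
RPS15A ENST00000569365.6: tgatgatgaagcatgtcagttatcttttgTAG
RPS15A reference ENST00000565420.5: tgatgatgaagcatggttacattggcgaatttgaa
The stop begins 10 bases into the added sequence in RPS9. In RPL12 and RPL3 it comes after 158 and 175 bases of intron.

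Positions are on GRCh38, the build of GENCODE 29, on which the sequences were read. The deposited tables give no positions. RPL3 lies at chr22:39312882-39320389 on the minus strand, RPL12 at chr9:127447674-127451405 on the minus strand, RPL10A at chr6:35468408-35470785 on the plus strand, RPS9 at chr19:54200742-54249003 on the plus strand, RPLP0 at chr12:120196686-120201235 on the minus strand and RPS15A at chr16:18781295-18790383 on the minus strand. RPL3 holds 3 small nucleolar RNAs inside its gene (SNORD83B, SNORD83A and SNORD43), RPL12 holds 1 (SNORA65) and the other 4 genes hold 0 in this annotation.

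**Figure D1:**
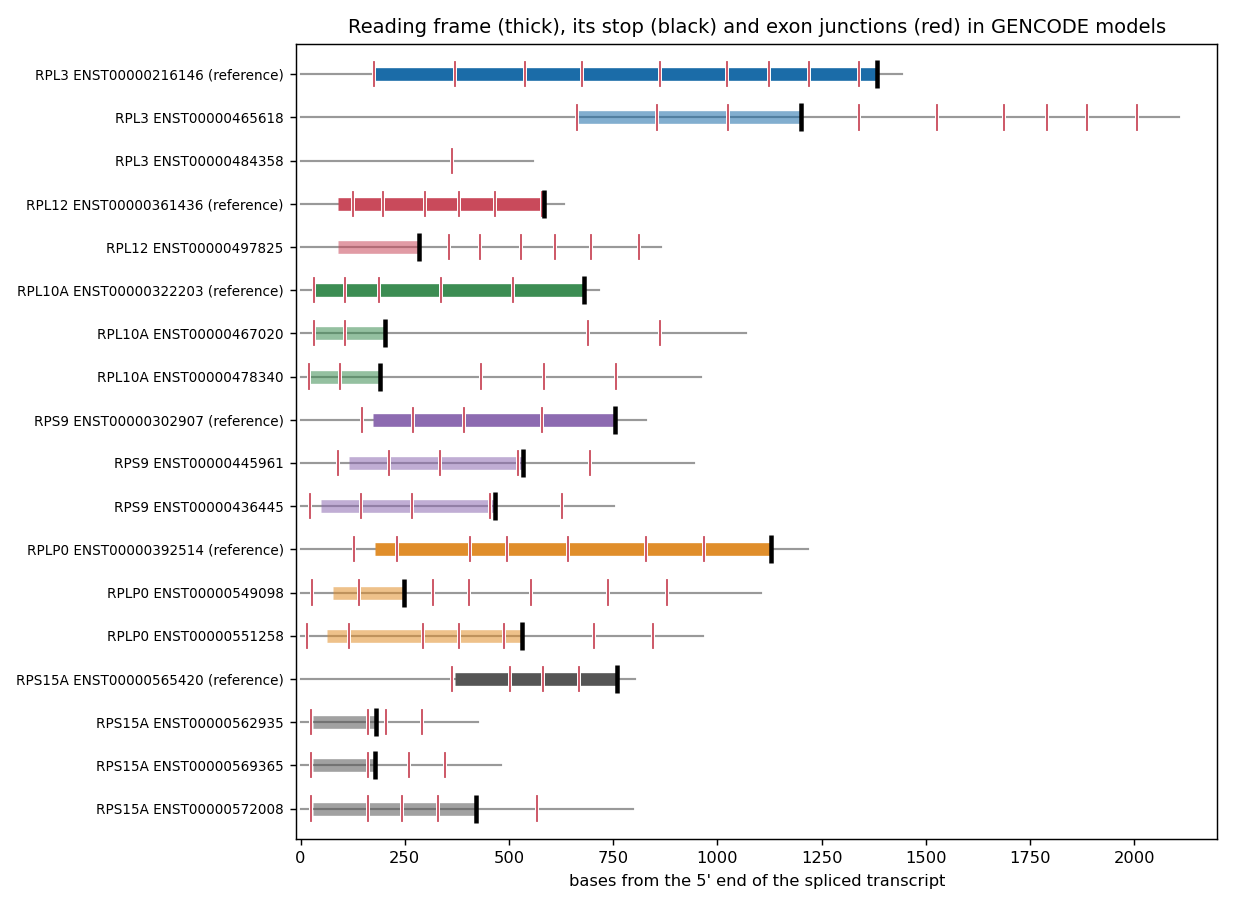
Horizontal axis: bases from the 5′ end of each spliced transcript in GENCODE 29. The thick bar is the reading frame of the reference protein up to its first stop (black), thin lines are the rest of the transcript and red ticks are exon junctions; RPL3 ENST00000465618 is read from its first shared codon, and ENST00000484358, which begins inside intron 3, has no frame drawn. In RPL10A, RPS9 and RPLP0 the marked isoforms stop after 58, 139 and 57 codons (156 in ENST00000551258), with between 1 and 5 junctions still to come.

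The authors marked an isoform where its signal was over 2 times the control in both co-depletions. This rule fits the marks of all 199618 isoforms in the table with 0 mismatches, and 28034 of them (14.0%) were marked. For the 6 genes 25 of 78 isoforms were marked, and 23 of these were among the 53 isoforms with a mean signal of at least 30.9, the level used here to leave out low isoforms. A further 11 isoforms of the 6 genes were listed at 0 in all libraries. Near the threshold on the inner side lay RPL12 ENST00000497322.1, whose lower co-depletion stood at 2.32 times the control, and RPL10A ENST00000490335.4 at 2.72 times. On the outer side lay an RPLP0 isoform without a reference match at 1.98 times and RPLP0 ENST00000552461.5 at 1.75 times.

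In 5 of the 6 genes the marked isoforms were a small part of the output in the control and a larger part in both co-depletions. Shares are the isoforms' signal as a percent of the summed signal of the locus, so they do not depend on how libraries were scaled. The rise over the control is what the mark selects and supports nothing by itself. The library labelled XRN1 was not used by the mark. Comparisons of marked isoforms with it are still not free of the selection, because their other side, the control or a co-depletion, was used by the mark.

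RPLP0 encodes the stalk protein of the large subunit that holds the P1 and P2 proteins. Its marked share was 3.13% in the control and 4.09, 13.6 and 15.6% in the libraries labelled XRN1, SMG6/XRN1 and UPF1/XRN1, the order used for every series of 4 values below. RPL10A, the protein of the mobile stalk on the side where tRNAs leave, had marked shares of 2.09, 6.33, 11.9 and 15.5%. RPS9, a small-subunit protein at the channel where mRNA enters, had 3.05, 6.48, 12.4 and 14.5%. In all 3 genes both co-depletions stood above both other libraries.

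RPL3, a large-subunit protein close to the peptidyl transferase centre, had a marked share of 0.609, 0.924, 4.58 and 5.92%. RPL12, which binds beside the stalk, had 0.702, 1.68, 4.62 and 5.83%. RPS15A, a small-subunit protein, had 0.00228, 0.00206, 0.00941 and 0.0126%. Those last values rest on 2 to 9 reads per library of 1 isoform that bears the symbol of ARL6IP1, a neighbouring gene assembled into the same locus, and the marked share of isoforms with the symbol RPS15A was 0 in all 4 libraries.

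**Figure D2:**
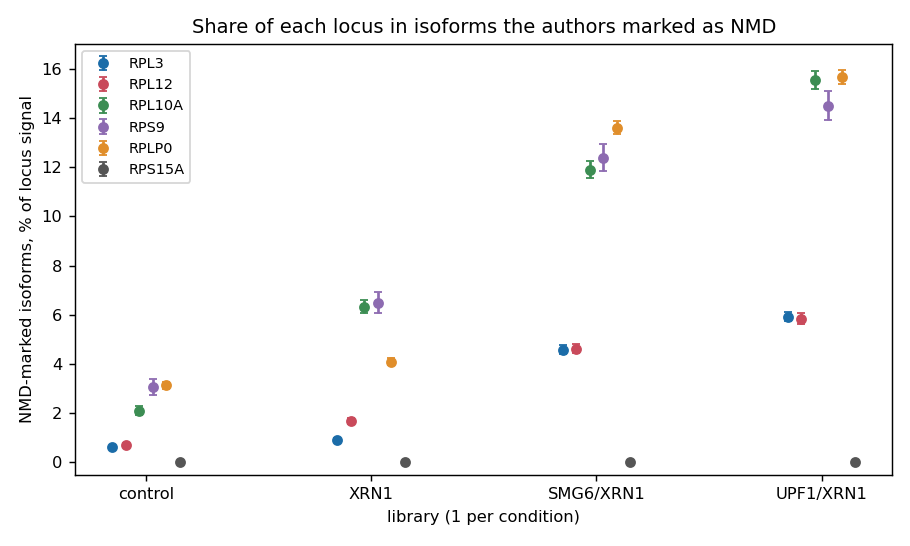
Vertical axis: percent of the locus signal in isoforms the authors marked as NMD isoforms; horizontal axis: the 4 libraries, 1 per condition; points are single libraries and bars are exact 95% Clopper-Pearson intervals of estimated reads. RPLP0, RPL10A and RPS9 stood between 11.9 and 15.6% in the co-depletions, RPL3 and RPL12 between 4.58 and 5.92%, and RPS15A near 0.

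In every one of the 5 genes the share was higher in UPF1/XRN1 than in SMG6/XRN1, and the 95% counting intervals of the 2 libraries did not overlap. The shares of RPL10A were 15.2 to 15.9% in UPF1/XRN1 and 11.6 to 12.2% in SMG6/XRN1 by these intervals, and those of RPS9 were 13.9 to 15.1% and 11.8 to 13.0%. The library labelled XRN1 also stood above the control in all 5, by the most in RPL10A, with intervals of 6.07 to 6.59% and 1.92 to 2.28%. The median marked share over the 4920 loci with at least 1000 reads in every library moved in the same directions. Its values were 0.130, 0.590, 1.56 and 1.95%, so these directions alone do not set the 5 genes apart. How many single loci had separate intervals was not tested. A higher share was not always a higher signal. In RPLP0 the marked signal was 38273 in SMG6/XRN1 and 37465 in UPF1/XRN1, while the unmarked signal was 243110 and 202091. In the rest of the 5 genes the marked signal was higher in UPF1/XRN1, in RPS9 by little (7126 and 7405).

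A marked share of at least 5% in UPF1/XRN1 was reached by 5 of the 6 genes, against 37.7% of the 4920 loci with at least 1000 reads in every library. In SMG6/XRN1 it was reached by 3 of 6, against 35.2%, and in the library labelled XRN1 by 2 of 6, against 26.3%. Across the 6 genes the median share was 1.40, 2.89, 8.26 and 10.2% in library order, against 0.130, 0.590, 1.56 and 1.95% over the 4920 loci. With a mark at 3-fold in place of 2-fold those medians of the 6 genes became 0.639, 2.14, 5.44 and 7.11%, since RPS9 ENST00000436445.5, at 2.74 times the control in its lower co-depletion, no longer counted.

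RPLP0 ENST00000549098.5 was the most abundant marked isoform of the 6 genes. It lengthens exon 2 at its 3′ end by 11 bases of intron 2 and stops after 57 codons with 5 junctions still to come, the last 629 bases downstream. Its signal was 5404, 9963, 30157 and 29778, or 2.51, 3.33, 10.7 and 12.4% of the locus. Both co-depletions stood about as far above the library labelled XRN1, at 3.03 times (95% interval 2.89 to 3.17) and 2.99 times (2.86 to 3.13). The library labelled XRN1 was 1.84 times the control (1.73 to 1.97), so for this isoform the larger step came with the second siRNA.

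Another RPLP0 form, ENST00000551258.5, lengthens exon 6 at its 5′ end by 31 bases, chr12:120198740-120198770. It also skips 41 bases of the reference, chr12:120198854-120198894, and stops after 156 codons. ENST00000547173.5, which stayed below 1% of the locus, shares those 31 bases, and the summed signal of both was 967, 1559, 4982 and 3855, or 0.450, 0.522, 1.77 and 1.61% of the locus. The first of them was lower in UPF1/XRN1 than in SMG6/XRN1, at a ratio of 0.760 (0.693 to 0.832), and for the second the ratio was 0.865 (0.692 to 1.09).

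RPLP0 ENST00000551150.5 is marked although its reading frame ends at the normal stop. It retains intron 1, which lies upstream of the start codon, at chr12:120200832-120201082. Its signal was 190, 269, 1495 and 2223, or 0.0885, 0.0899, 0.531 and 0.928% of the locus, and it was named here after its values were seen.

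RPL10A has 4 marked isoforms, 1 or 2 for each of its first 3 introns. By signal most came from 2 isoforms of intron 3: ENST00000467020.5 retains it whole (353 bases) and ENST00000478340.2 keeps its first 258 bases, so that both stop at the same TGA after 58 codons. Their summed share of the locus was 1.46, 5.82, 10.8 and 14.4%. The pair separated in how it responded. ENST00000478340.2 had a signal of 624, 5652, 9199 and 10522, and was 9.06 times the control (7.73 to 10.8) already in the library labelled XRN1, then 1.63 times (1.52 to 1.74) and 1.86 times (1.75 to 1.99) that library in the SMG6 and UPF1 co-depletions. ENST00000467020.5 had a signal of 723, 2406, 6954 and 10825, with 3.33 times the control (2.81 to 3.93) in the library labelled XRN1 and 2.89 times (2.63 to 3.18) and 4.50 times (4.12 to 4.92) that library in the co-depletions. Retained intron 3 was 1.56 times (1.46 to 1.65) higher in UPF1/XRN1 than in SMG6/XRN1, the partly kept intron 1.14 times (1.08 to 1.21). How reads common to both were divided between them was not tested.

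The other RPL10A isoforms, ENST00000464112.5 with intron 1 and ENST00000490335.4 with intron 2, stop after 2 and 27 codons. They are named after their values were seen, since neither reached 1% of the locus. ENST00000464112.5 had shares of 0.432, 0.382, 0.801 and 0.788% and ENST00000490335.4 had 0.201, 0.129, 0.336 and 0.384%.

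In RPS9 a separate exon of 172 bases within intron 4, chr19:54206553-54206724, is shared by ENST00000436445.5 and ENST00000445961.5. It brings in a TGA after 139 codons, 159 bases before the last junction. Summed over both isoforms, the signal was 1337, 3241, 6744 and 6620, or 2.90, 6.18, 11.7 and 13.0% of the locus. The isoforms differ in their first exon, and the part of each was less even: ENST00000436445.5 had 1153, 2020, 3501 and 3163, and ENST00000445961.5 had 185, 1220, 3244 and 3457. ENST00000391752.5, which shares the longer first exon of ENST00000445961.5 without the extra exon, had a signal of 840 in the control and was listed at 0 in the other 3 libraries. All isoforms with that first exon summed to 2.22, 2.33, 5.64 and 6.77% of the locus.

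RPS9 ENST00000391751.7, which skips 187 bases of the reference, was not marked. Its signal was 1489, 1191, 820 and 1240, or 3.23, 2.27, 1.43 and 2.43% of the locus. It stops after 79 codons, beyond the last junction of its model. The most abundant RPS9 isoform, ENST00000302907.8 with the full 194 codons, took 91.2, 90.6, 85.3 and 82.3%.

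RPL12 ENST00000497825.5 lengthens exon 1 at its 3′ end by 231 bases of intron 1, chr9:127451050-127451280. The added length is a multiple of 3, and the frame still ends in it, at a TAG after 65 codons with 6 junctions downstream. Its signal was 1058, 3659, 8516 and 9431, or 0.669, 1.65, 4.56 and 5.73% of the locus. The library labelled XRN1 was 3.46 times the control (3.01 to 3.96), and the co-depletions were 2.33 times (2.15 to 2.52) and 2.58 times (2.39 to 2.78) that library. The normal RPL12 mRNA, ENST00000361436.9, had 156986, 217579, 178202 and 154865.

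RPL3 ENST00000465618.5 lengthens exon 4 at its 5′ end by 180 bases of intron 3, chr22:39316842-39317021. Its model lacks the start codon, and read in the reference frame it stops after 180 codons with 6 junctions downstream. Its signal was 593, 832, 4972 and 5645, or 0.310, 0.308, 2.01 and 2.72% of the locus, so the control and the library labelled XRN1 had the same share within counting error. The co-depletions were 5.98 times (5.13 to 6.94) and 6.79 times (5.88 to 7.91) the library labelled XRN1. ENST00000484358.1, a short model that begins inside intron 3 and holds the same 180 bases, had 345, 1035, 4800 and 4832. Together the 2 took 0.490, 0.690, 3.94 and 5.05% of RPL3.

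**Figure D3:**
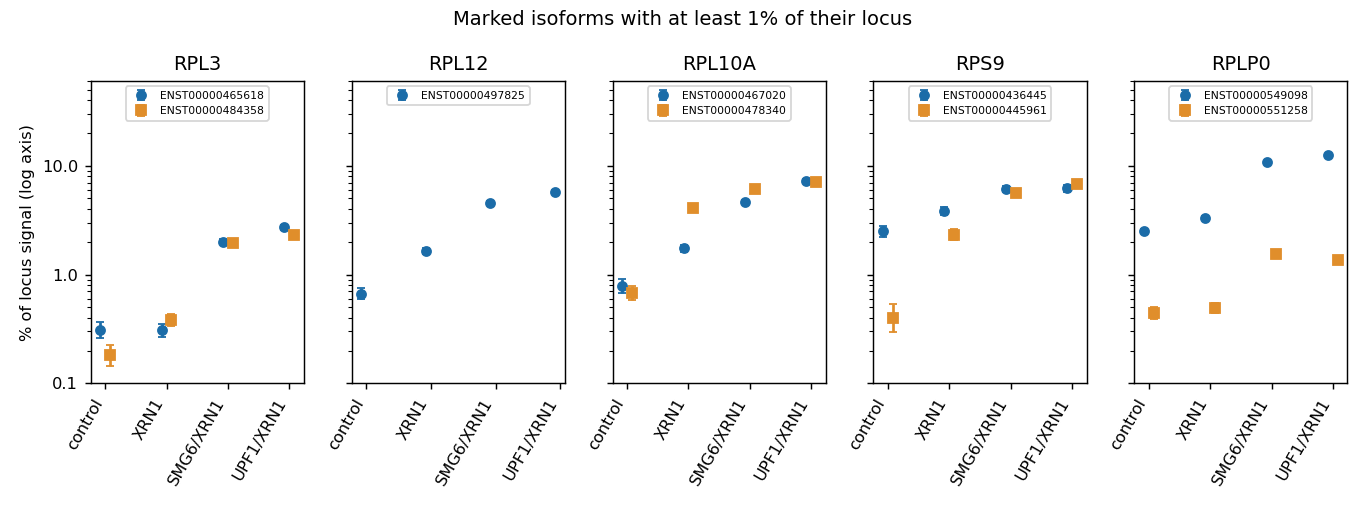
Vertical axis: percent of the locus signal (log axis) of the 9 marked isoforms that reached 1% of their locus; horizontal axis: the 4 libraries; points are single libraries and bars are exact 95% Clopper-Pearson intervals. RPL3 ENST00000465618 was flat from the control to the library labelled XRN1 (0.310 and 0.308%), while RPL10A ENST00000478340 went from 0.677 to 4.08% between the same libraries.

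RPS15A is the exception in the group. GENCODE 29 gives the type nonsense_mediated_decay to 4 of its isoforms in the table, and 3 of them were abundant. ENST00000562935.5 ends after 50 codons, 109 bases before its last junction, and had a signal of 81714, 106448, 97505 and 76506, or 29.0, 30.7, 30.5 and 28.9% of the locus. ENST00000569365.6, which lengthens exon 3 at its 5′ end by 17 bases, ends after 49 codons and had 53493, 67480, 62967 and 53411, or 19.0, 19.5, 19.7 and 20.2%. ENST00000572008.5 keeps the normal stop after 130 codons and has a junction 145 bases beyond it, with 6.53, 5.95, 5.74 and 7.18%.

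None of the 3 moved with the marked isoforms of the other genes. In UPF1/XRN1 they stood at 0.936 times (0.918 to 0.954), 0.999 times (0.975 to 1.02) and 1.03 times (0.991 to 1.07) the control. Of the protein-coding isoforms with the symbol RPS15A, ENST00000565420.5 took 33.3, 33.3, 32.4 and 32.6% and ENST00000322989.8 took 2.11, 1.96, 2.02 and 2.22%. ENST00000562935.5 and ENST00000569365.6 are 427 and 481 bases long, and how the authors' program divided reads among such short, overlapping models was not tested. Isoforms under other symbols, chiefly ARL6IP1, held 9.97, 8.46, 9.62 and 8.69% of this locus. The protein-coding ARL6IP1 ENST00000304414.11, with 8.32, 6.58, 7.01 and 5.81%, stood at 0.655 times the control (0.629 to 0.681) in UPF1/XRN1.

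**Figure D4:**
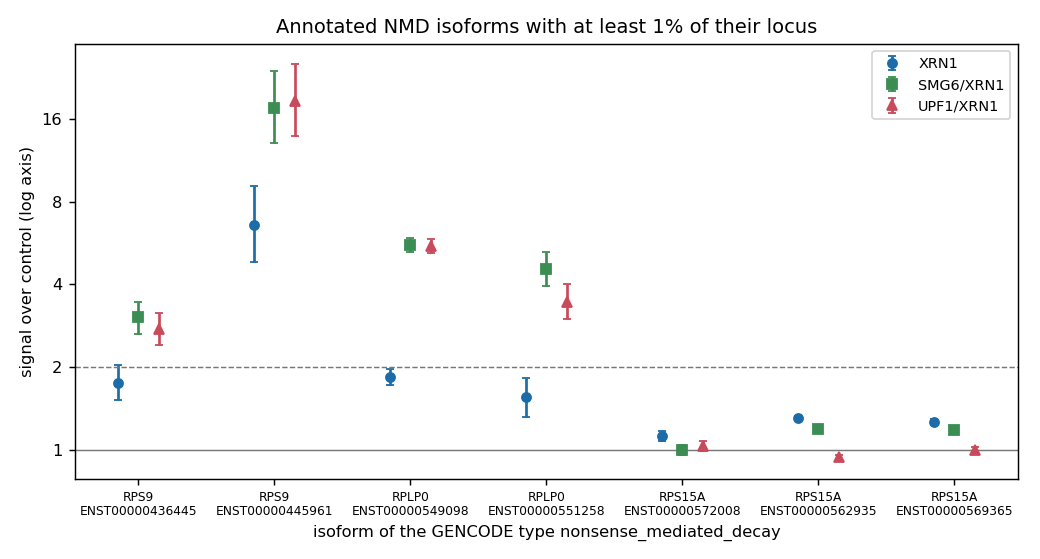
Vertical axis: signal over the control (log axis), with the solid line at 1 and the dashed line at 2; horizontal axis: the 7 isoforms of GENCODE type nonsense_mediated_decay that reached 1% of their locus; points are single libraries and bars are exact 95% intervals from estimated reads. The RPS9 and RPLP0 isoforms are marked, so they lie above 2 in both co-depletions by the rule of the mark. The 3 RPS15A isoforms are not marked and lie between 0.936 and 1.30 in all libraries.

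By transcript type, 5 of 9 member isoforms annotated as nonsense_mediated_decay were marked, against 49.5% of all isoforms of that type past the filter. Of those annotated as processed_transcript 7 of 9 were marked (38.1% overall), of those annotated as retained_intron 5 of 7 (35.1%), and of those annotated as protein_coding 2 of 18 (17.6%). None of the marked forms of RPL3, RPL12 or RPL10A named above has the annotated NMD type, and the most abundant isoforms that have it, those of RPS15A, were not marked.

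The mark did not use the position of the stop. The stop was read here in the frame of the protein-coding isoform that GENCODE tags as principal, taking the most abundant in the control. In RPL3 that isoform, ENST00000216146.8, took 21.1, 17.6, 17.6 and 15.1% of the locus. The protein-coding ENST00000401609.5, whose model lacks the start codon, was more abundant, with 78.2, 81.4, 77.8 and 78.8%. Among the 19 marked isoforms past the filter with a reference match, 16 held the reference start codon and an in-frame stop, and in 12 of these the stop lay over 50 bases before the last junction. Of the 24 unmarked ones, 21 held both, and in 6 the stop lay that far upstream, 4 of them isoforms of RPS15A. The normal stop was kept by 1 of the 16 marked and 14 of the 21 unmarked isoforms. Members of each set share a gene and often the same added bases, so these counts are not independent.

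The signal of all member isoforms was then counted against all 61408 isoforms past the filter, at 2-fold on log2(signal + 1). The filter took the mean over all 4 libraries, so an isoform could pass it through the co-depletions alone. For such an isoform the rise over the library labelled XRN1 is not independent of the filter. In the library labelled XRN1 over the control 12 of 53 were higher (24.3% of all isoforms) and 3 were lower (12.6%). In SMG6/XRN1 over XRN1 22 were higher (25.1%) and 1 was lower (9.3%). In UPF1/XRN1 over XRN1 25 were higher (27.1%) and 0 were lower (11.5%). Over the control the counts were 25 higher (35.2%) and 2 lower (8.52%) for SMG6/XRN1, and 28 higher (35.5%) and 2 lower (10.3%) for UPF1/XRN1, and these comparisons share the control with the first one and with the mark.

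Of the 23 marked isoforms past the filter, 11 were at least 2-fold above the control in the library labelled XRN1, against 59.5% of all marked isoforms. Against the library labelled XRN1 itself 18 of 23 were at least 2-fold higher in SMG6/XRN1 (48.5% of all marked isoforms) and 19 of 23 in UPF1/XRN1 (52.8%). The median log2 change of the 23 was 0.88, 1.53 and 1.71 in these comparisons, beside 1.37, 0.96 and 1.09 over all marked isoforms. A higher signal in UPF1/XRN1 than in SMG6/XRN1 was found for 15 of 23, and for 56.2% of all marked isoforms. Some of the 23 passed the filter through the co-depletions alone, which fixed their rise over the library labelled XRN1. Examples, both below 1% of their locus, are an RPL3 isoform without a reference match (0, 0, 155 and 67.7) and RPLP0 ENST00000552902.5 (0, 0, 130 and 43.3). The percentages over all marked isoforms used the same filter.

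The level of the loci as a whole changed less than 2-fold in every comparison. RPL3 had levels of 1087, 1523, 1346 and 1140 FPKM. RPL12 stood at 2284, 3109, 2456 and 2167 FPKM and RPL10A at 1113, 1615, 1621 and 1591 FPKM. RPS9, the lowest of the 6, stood at 478, 526, 538 and 483 FPKM. RPLP0 stood at 1437, 1921, 1735 and 1479 FPKM, and RPS15A, the highest in all 4 libraries, at 4546, 5621, 4894 and 4018 FPKM. From high to low the order was RPS15A, RPL12, RPLP0, RPL10A, RPL3 and RPS9 in every library but UPF1/XRN1, where RPL10A stood above RPLP0, and without replicates the spread behind these places is unknown. Fewer cells expressing a gene and less RNA per cell cannot be told apart in such bulk libraries.

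**Figure D5:**
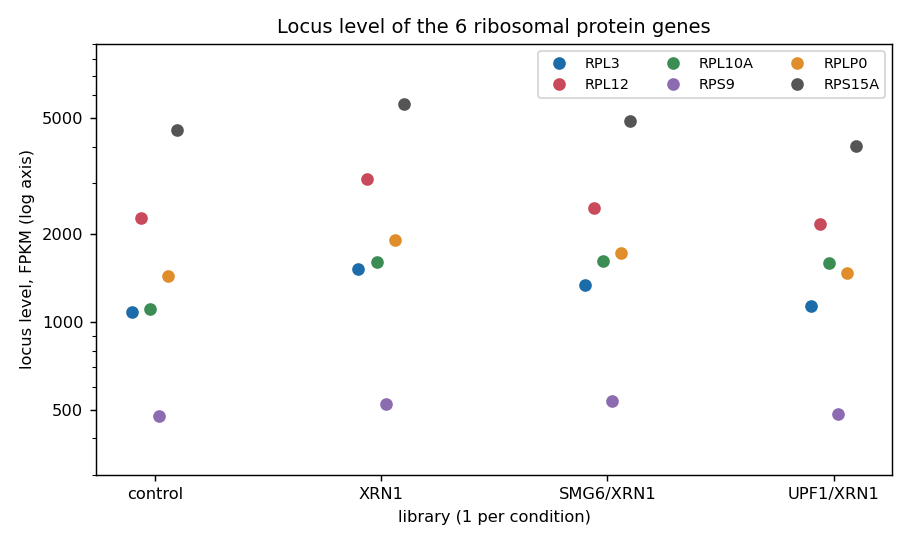
Vertical axis: locus level in FPKM (log axis); horizontal axis: the 4 libraries, 1 per condition; each point is 1 library. All loci but RPL10A and RPS9 were highest in the library labelled XRN1, and RPL10A kept its level in the co-depletions (1615, 1621 and 1591 FPKM).

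At 2-fold on log2(FPKM + 1), 0 of 6 loci were higher in the library labelled XRN1 than in the control, against 4.11% of the 12164 loci with a mean of at least 1 FPKM, and 0 were lower (0.37%). Counts over the XRN1 library were 0 higher (1.36%) and 0 lower (0.173%) for SMG6/XRN1, and 0 higher (2.52%) and 0 lower (0.534%) for UPF1/XRN1. Over the control they were 0 higher (9.3%) and 0 lower (0.263%) for SMG6/XRN1, and 0 higher (10.2%) and 0 lower (0.575%) for UPF1/XRN1.

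Below 2-fold the loci shared a direction in part. The log2 change of the library labelled XRN1 over the control ranged from 0.14 in RPS9 to 0.54 in RPL10A with a median of 0.43, beside 0.14 over all loci. UPF1/XRN1 over XRN1 ranged from -0.52 in RPL12 to -0.02 in RPL10A with a median of -0.40, beside 0.02 over all loci. SMG6/XRN1 over XRN1 had a median of -0.16, beside 0.12 over all loci, with RPL12 lowest at -0.34 and RPS9 and RPL10A at 0.03 and 0.01. After subtracting the median of all loci RPS9 and RPL10A were at -0.08 and -0.11 in that comparison, and RPL3, RPS9 and RPLP0, at 0.07, 0.02 and 0.04 in UPF1/XRN1 over the control, were at -0.08, -0.13 and -0.11. RPS9 in the library labelled XRN1 over the control was then at -0.0020. RPL10A in UPF1/XRN1 over XRN1 turned from -0.02 to 0.10 by summed isoform signal, also when scaled to equal totals. Directions of these small values thus depend on the scaling, which the shares do not.

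The unmarked isoforms can be followed separately in the signal. In UPF1/XRN1 their summed signal was 0.728 times that in the library labelled XRN1 in RPL3, 0.712 in RPL12, 0.968 in RPL10A, 0.892 in RPS9, 0.705 in RPLP0 and 0.763 in RPS15A. Against the control the same values were 1.03, 0.987, 1.39, 0.978, 0.971 and 0.938. RPL10A stood apart from the other 5 in this, with a normal mRNA of 90225 in the control and 125607 in UPF1/XRN1.

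The rest of the family was described from a list of 74 cytosolic ribosomal protein genes, of which 73 were found, at 73 distinct loci. In 6 of these other symbols held over 1% of the signal, most in RPL17, whose own isoforms were 11.1% of its locus. At least 2-fold higher were 0 of 73 in all 5 comparisons. Median log2 changes were 0.25 for the library labelled XRN1 over the control, with 71 of 73 above 0, -0.21 for SMG6/XRN1 over XRN1 and -0.47 for UPF1/XRN1 over XRN1, with 1 of 73 above 0 in each of the last 2. By summed isoform signal the last 2 medians were -0.12 and -0.38, with 5 and 2 of 73 above 0. Centred on the median of all loci the 3 were 0.11, -0.33 and -0.49. In the first comparison RPL23 (-0.38) and RPS24 (-0.0062) were lowest and RPSA (0.56) and RPL28 (0.49) were highest. In SMG6/XRN1 over XRN1 RPL14 (-0.36) was among the lowest and RPS12 (0.20) and RPS26 (-0.0064) were highest. In UPF1/XRN1 over XRN1 RPL14 (-0.65) was again among the lowest, and RPS12 (0.02) and RPL37 (-0.17) were highest. By summed isoform signal these 2 were at 0.10 and 0.20, so the direction of RPL37 turned and it stood above RPS12.

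Marked isoforms took at least 5% of the locus in UPF1/XRN1 in 7 of the 73 other genes, against 5 of the 6. Some of these had larger marked shares than any of the 6. RPS12 had 6.56, 8.63, 29.6 and 35.6% in library order, RPL37 had 6.18, 15.1, 30.6 and 34.1%, and RPSA had 14.6, 21.4, 26.2 and 26.9%. The median of the 73 was 0.0795, 0.144, 0.346 and 0.406%, and 14 of them had no marked signal in UPF1/XRN1. The 6 genes were chosen for having marked isoforms, so that their median lies higher is part of the choice.

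By locus level over the 4 libraries, the genes most like the mean of the 6 were IGF2BP2, SIMC1, AMD1, RPS27 and GPI, among 4872 loci with at least 1000 reads in every library. The measure was the Euclidean distance of log2(FPKM + 1), centred on each gene's own mean, and these distances were 0.0232 to 0.0419. The 6 genes themselves lay 0.0410 (RPLP0) to 0.334 (RPL10A) from their mean, and 1778 loci lay within the distance of RPL10A, so the likeness is loose. RPS27, itself a ribosomal protein gene, stood at 3789, 4802, 4375 and 3879 FPKM.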

How the data were processed

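The members and gene lists were chosen with earlier results of these data known. Per the submitters' processing notes, the tools were Cufflinks 2.0.2, TopHat2 2.0.6, Bowtie 0.12.7 and CASAVA 1.8.2, with hg19. Their roles, any strand setting and the spike-in itself are not stated there, so overlapping genes and near-identical copies, which ribosomal protein genes have as pseudogenes, are uncertain. The gene table deposited by the authors holds FPKM per assembled locus. The isoform table deposited by the authors holds signal, spike-in normalised, whose low values are multiples of 1 step per library (3.85, 4.05, 4.25 and 3.72). Dividing by it gave estimated reads, and 84.6 to 86.6% of loci of at most 20 reads came out whole within 0.01.

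From these, isoform shares of the locus with exact Clopper-Pearson intervals, ratios of scaled reads with exact conditional binomial intervals (both 95%) and log2((a + 1)/(b + 1)) were computed with Python 3.11.15, pandas 2.3.3 and scipy 1.17.1, and tested on simulated data. Loci needed a mean of 1 FPKM and isoforms a mean signal at the median of nonzero means (30.9). Isoforms named in the text reached 1% of their locus, unless stated; other ribosomal protein genes named were the extremes of each comparison and the highest marked shares. Transcripts were matched to GENCODE 29 (GRCh38) by identifier. Stops were read in the frame of the protein-coding isoform tagged as principal there, taking the most abundant in the control. The changes of 1 gene of the ribosomal protein list and some isoform sequences are not reported here. The series' 4 libraries of 5′ ends and 1 CAGE library were not analysed. Alternatives were another pseudocount, filter, scaling, mark threshold and reference match.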

Additional observations from a re-analysis of the deposited data

How the results depend on the processing

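No paired analysis was possible because each condition has 1 library, and for the same reason no replicate could be left out. No result changed its direction past 2-fold under any alternative. Without the filter on low values the member isoforms at least 2-fold lower numbered 6, 2, 4, 5 and 7 in place of 3, 1, 0, 2 and 2, for XRN1 over control, SMG6/XRN1 and UPF1/XRN1 over XRN1, and SMG6/XRN1 and UPF1/XRN1 over control. Centred on the median of all loci, 1 other ribosomal protein gene in place of 0 was past 2-fold in UPF1/XRN1 over control. The median marked share of the 6 loci, 1.40, 2.89, 8.26 and 10.2% in library order, became 0.639, 2.14, 5.44 and 7.11% with a 3-fold mark, and 2.09, 4.09, 11.9 and 14.5% without RPS15A, an alternative added after the data were seen. By signal per GENCODE length, added likewise, it was 1.09% in the control, 7.40% in SMG6/XRN1 and 9.51% in UPF1/XRN1, and with reference-matched isoforms alone 9.75% in UPF1/XRN1. For RPS9 the 3-fold mark gave 0.550, 2.62, 6.30 and 8.30%. Signal scaled to the same total moved 33 values of locus change without a call at 2-fold. Depth limits the isoforms with few reads, such as RPL12 ENST00000497322.1 with 11, 11, 23 and 31.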
